A study of Mus musculus with 4 samples.

Results

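Laminins, nidogens and perlecan are the glycoproteins and the proteoglycan that, with type IV collagen, build basement membranes. The genes described here are a named list of 10: the laminin α chain genes Lama1, Lama2, Lama4 and Lama5, the β chain genes Lamb1 and Lamb2, the γ chain gene Lamc1, the nidogen genes Nid1 and Nid2, and Hspg2, which encodes perlecan. They were found by symbol among the 32285 genes of the deposited count tables, and each of the 10 had at least 1 unique molecular identifier (UMI, the tag that counts captured messenger RNA molecules) in every brain slice. The rule that picks them is their names and uses no measured value, although the list was drawn up with earlier results of these data known.

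A laminin is a cross-shaped trimer of 1 α, 1 β and 1 γ chain, which assembles into a sheet at the cell surface, held there by integrins and dystroglycan. Nidogens and perlecan tie this sheet to the collagen IV network. In the brain, basement membranes lie around blood vessels and under the pia, where astrocyte endfeet and meningeal cells meet. Endothelial cells are known for the chains encoded by Lama4 and Lama5, astrocytes and mural cells for that of Lama2, and leptomeningeal cells for that of Lama1.

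The data are Visium spatial transcriptomes, in which tissue laid on a grid of barcoded spots gives UMIs per gene and spot, and 1 spot can hold several cells of different types. Photothrombotic (PT) injury, a light-triggered clotting of cortical vessels, was studied in cortex of wild-type mice at rest (1 mouse), 2 days post-injury (dpi, 1 mouse), 7 dpi (2 mice) and 21 dpi (2 mice), with 1 slice per mouse and 2 slices per capture area. Another 2 mice at 21 dpi carried Cthrc1(creER) and R26(DTA), in which Cthrc1-driven recombination should turn on a toxin in Cthrc1-expressing myofibroblasts. They are called deleter mice here, and the study left them out because no deletion was detectable. These slices are given as values, in 1 comparison of their own and in alternative fits where stated.

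The 8 slices held 827 to 1726 spots and 11332780 to 23677298 UMIs. Median UMIs per spot lay between 12447 and 16158 in every slice but that at 2 dpi, where the median was 2633.5 and 21.7% of spots had fewer than 1000 UMIs. Slice numbers within a group carry no meaning. Each time point was on a capture area of its own, apart from rest and 2 dpi, which shared an area. The area at 7 dpi held slices with Xist UMIs, and the wild-type area at 21 dpi held slices with UMIs of the Y-linked gene Ddx3y, so that time, capture area and sex cannot be told apart. A fibroblast marker list (Col1a1, Col1a2, Col3a1, Dcn, Lum, Pdgfra) was seen at the edge of every slice and in Col1a1-rich spots (defined below) at 7 and 21 dpi. Neuron, astrocyte and oligodendrocyte markers were detected in all slices. Lists of cell type markers are given below beside the results they move with.

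By the annotation of GRCm38, the genome build mm10, the 10 genes lie on 9 chromosomes, with Lama2 and Lama4 both on chromosome 10. Lama1 spans 67697259 to 67822647 of chromosome 17, Lama2 26980036 to 27619758 of chromosome 10, Lama4 38965515 to 39110188 of chromosome 10 and Lama5 180176373 to 180225859 of chromosome 2. Lamb1 spans 31265234 to 31329644 of chromosome 12, Lamb2 108479736 to 108490530 of chromosome 9 and Lamc1 153218922 to 153332786 of chromosome 1. Nid1 spans 13437551 to 13512269 of chromosome 13, Nid2 19751265 to 19811787 of chromosome 14 and Hspg2 137468769 to 137570630 of chromosome 4.

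Promoter windows from RefSeq on GRCm38.p6, running from 250 bases before to 50 after the start, were at hand for 6 of the 10 genes (Lama2, Lama5, Lamb1, Lamb2, Nid1, Hspg2). Those of Lama1, Lama4, Lamc1 and Nid2 were not analysed here. Shown are the windows of both β chain genes, whose levels in Col1a1-rich spots (defined below) moved in opposite directions between 7 and 21 dpi. Also shown are those of Nid1 and Hspg2, which differed most between Col1a1-rich and Col1a1-free spots among genes with a window. All 4 are on the plus strand, at chr12:31265043-31265342 (Lamb1), chr9:108479612-108479911 (Lamb2), chr13:13437352-13437651 (Nid1) and chr4:137468553-137468852 (Hspg2). Capitals mark the GC box GGGCGG on either strand.
Lamb1: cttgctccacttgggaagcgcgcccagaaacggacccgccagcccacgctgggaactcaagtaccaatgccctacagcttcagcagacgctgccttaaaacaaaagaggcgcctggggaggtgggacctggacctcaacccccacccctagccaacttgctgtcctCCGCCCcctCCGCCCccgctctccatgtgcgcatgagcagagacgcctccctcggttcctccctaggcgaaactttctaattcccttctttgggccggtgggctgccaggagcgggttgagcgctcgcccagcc
Lamb2: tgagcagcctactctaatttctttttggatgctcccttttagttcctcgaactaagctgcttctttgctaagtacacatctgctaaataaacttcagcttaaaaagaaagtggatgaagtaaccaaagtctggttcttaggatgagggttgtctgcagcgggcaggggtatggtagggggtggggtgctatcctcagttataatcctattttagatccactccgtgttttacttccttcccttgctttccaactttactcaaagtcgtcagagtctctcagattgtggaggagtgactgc
Nid1: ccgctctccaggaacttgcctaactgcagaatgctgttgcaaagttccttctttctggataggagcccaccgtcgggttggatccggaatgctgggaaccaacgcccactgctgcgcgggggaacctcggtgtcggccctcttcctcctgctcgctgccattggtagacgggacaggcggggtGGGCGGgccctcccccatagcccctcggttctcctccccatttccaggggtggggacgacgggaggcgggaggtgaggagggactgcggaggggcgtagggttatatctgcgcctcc
Hspg2: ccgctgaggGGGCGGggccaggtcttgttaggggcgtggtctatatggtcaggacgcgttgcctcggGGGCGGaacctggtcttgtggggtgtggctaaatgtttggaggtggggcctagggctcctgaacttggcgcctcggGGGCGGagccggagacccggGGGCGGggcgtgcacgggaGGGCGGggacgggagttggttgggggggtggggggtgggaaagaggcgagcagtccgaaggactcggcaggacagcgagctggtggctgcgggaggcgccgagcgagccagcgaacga
The TATA box TATAAA, the GC box GGGCGG and the core that AP-1 factors bind, TGANTCA, were searched on both strands. GGGCGG occurred 5 times in the Hspg2 window, 4 times in that of Lama5, 2 times in that of Lamb1, 1 time in those of Nid1 and Lama2, and not in that of Lamb2. Of 32851 windows of this length, 35.7% held GGGCGG, 13.6% TATAAA and 7.81% TGANTCA, and neither of the last pair occurred in the 6 windows. The G and C content was 63.7% for Lamb1, 44.0% for Lamb2, 64.7% for Nid1 and 70.3% for Hspg2, with a median of 52.7% over all windows. A match in these letters is a description of the window and not a binding site.

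The first question was how the level of each gene over a whole slice differed with time. Levels are UMIs per 10000 UMIs of all genes, summed over all tissue spots of a slice. The tags read the 3′ ends of messenger RNAs with a capture that differs between genes, so levels are compared between slices and not between genes. In tissue, fewer cells of a type and less RNA per cell cannot be told apart. For rest and 2 dpi, with 1 slice each, exact 95% Poisson intervals are given, which cover counting error only.

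All 10 genes had their lowest whole-slice level at rest, though for Lama1, Lama2 and Lama4 the intervals at rest and 2 dpi overlapped. Without choroid plexus-rich spots (defined below), those of Lamb1 and Lama5 overlapped too. The share of all genes that were lowest at rest was not computed. Summed over the 10 genes, the level was 0.517 at rest, 1.11 at 2 dpi, 1.64 and 2.90 at 7 dpi, 2.23 and 2.18 at 21 dpi, and 2.35 and 1.85 in deleter slices. The 7 dpi slices lay on either side of those at 21 dpi. Their mean was 2.27 ± 0.896 (SD, n = 2) at 7 dpi and 2.20 ± 0.0371 (SD, n = 2) at 21 dpi.

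Of the α chain genes, Lama2, the chain of the laminin around astrocyte endfeet and of muscle, was 0.0721 at rest, 0.0833 at 2 dpi, 0.168 and 0.198 at 7 dpi, 0.214 and 0.200 at 21 dpi, and 0.201 and 0.186 in deleter slices. Injured slices at 7 and 21 dpi were thus above those at rest and 2 dpi with no overlap. Lama4, the chain of the thin laminin sheet of endothelial cells, was 0.0330 at rest, 0.0527 at 2 dpi, 0.141 and 0.289 at 7 dpi, 0.125 and 0.151 at 21 dpi, and 0.153 and 0.101 in deleter slices. Slice 2 at 7 dpi was the highest, and the other slices at 7 and 21 dpi lay between 0.101 and 0.153.

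Lama1, the chain of the pial basement membrane, had 23 UMIs in all at rest and a level of 0.0141. It was 0.0145 at 2 dpi, 0.0366 and 0.0636 at 7 dpi, 0.0663 and 0.0291 at 21 dpi, and 0.0420 and 0.0338 in deleter slices, so that the slices at 7 and 21 dpi overlapped. Lama5, the chain of mature endothelial and of epithelial basement membranes, was 0.0318 at rest, 0.0733 at 2 dpi, 0.0832 and 0.0614 at 7 dpi, 0.104 and 0.0724 at 21 dpi, and 0.0731 and 0.0688 in deleter slices. Its slices from 2 dpi onward lay between 0.0614 and 0.104 and did not order by time.

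The β chain genes differed from each other in their course. Lamb1 was 0.0685 at rest, 0.174 at 2 dpi, 0.239 and 0.410 at 7 dpi, 0.255 and 0.146 at 21 dpi, and 0.180 and 0.200 in deleter slices. Lamb2, the β chain of mature vessels, muscle and the synaptic cleft, was 0.108 at rest, 0.255 at 2 dpi, 0.343 and 0.429 at 7 dpi, 0.572 and 0.658 at 21 dpi, and 0.672 and 0.491 in deleter slices. Lamb1 was thus highest in a 7 dpi slice, while every slice at 21 dpi, deleter slices included, exceeded both 7 dpi slices for Lamb2. Mean Lamb2 was 0.386 ± 0.0610 (SD, n = 2) at 7 dpi and 0.615 ± 0.0609 (SD, n = 2) at 21 dpi.

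Lamc1, which encodes the γ chain shared by most laminins, was 0.117 at rest, 0.182 at 2 dpi, 0.268 and 0.486 at 7 dpi, 0.310 and 0.314 at 21 dpi, and 0.344 and 0.267 in deleter slices. Nid1, the linker of laminin and collagen IV, was 0.0330 at rest, 0.0863 at 2 dpi, 0.149 and 0.530 at 7 dpi, 0.250 and 0.277 at 21 dpi, and 0.309 and 0.251 in deleter slices. In both genes the 2 slices at 7 dpi enclosed those at 21 dpi, and for Nid1 the spread at 7 dpi was wide, at 0.339 ± 0.270 (SD, n = 2).

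Nid2, the second nidogen, was 0.0214 at rest, 0.117 at 2 dpi, 0.127 and 0.167 at 7 dpi, 0.146 and 0.116 at 21 dpi, and 0.109 and 0.0824 in deleter slices. Hspg2 was 0.0183 at rest, 0.0680 at 2 dpi, 0.0839 and 0.269 at 7 dpi, 0.185 and 0.212 at 21 dpi, and 0.261 and 0.170 in deleter slices. For Nid2 the slice at 2 dpi lay within the range of the later slices. Without choroid plexus-rich spots (defined below) it was 0.0707 (interval 0.0559 to 0.0883), beside 0.0735 to 0.167 in the later slices. Its interval overlapped that of the lowest of these, deleter slice 2 (0.0627 to 0.0857). Hspg2 at 2 dpi and in slice 1 at 7 dpi was below every slice at 21 dpi.

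**Figure D1:**
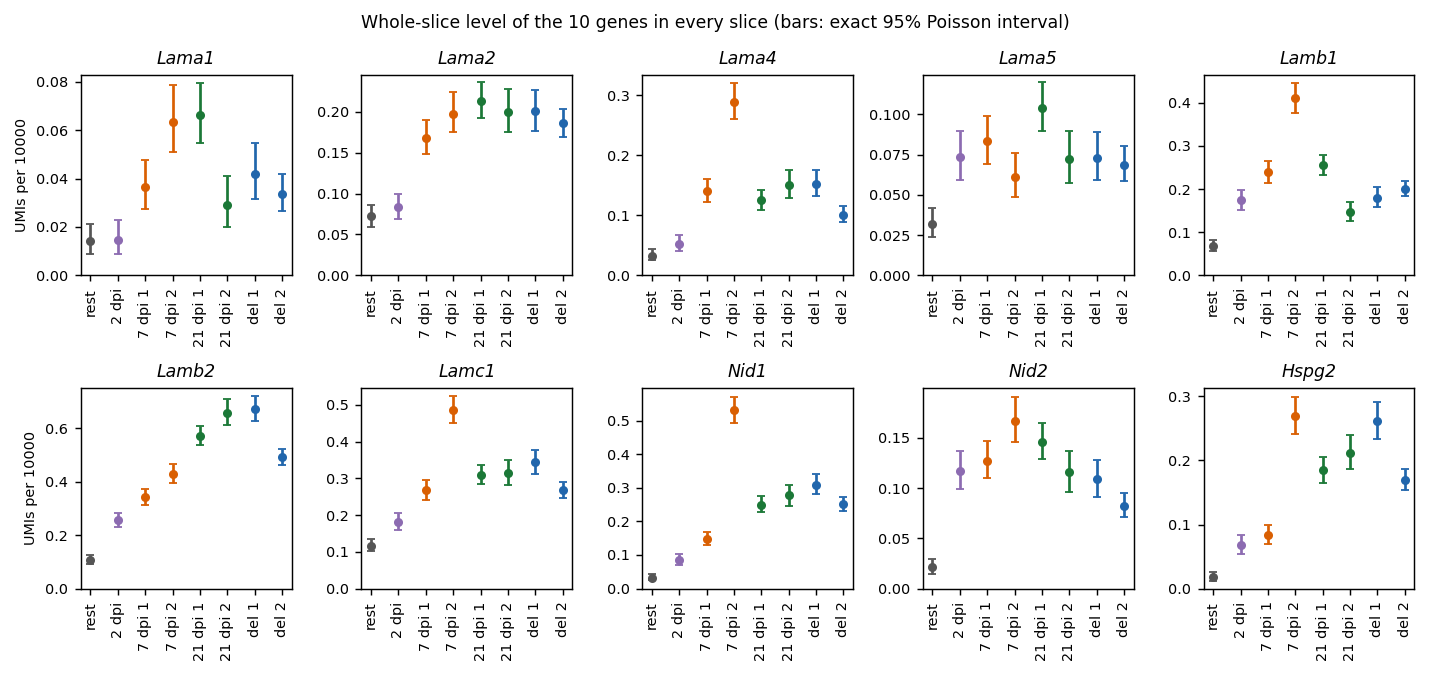
Whole-slice level of each of the 10 genes (y axis, UMIs per 10000 UMIs of all genes, a separate scale per panel) in the 8 slices (x axis; del, deleter at 21 dpi), with bars for the exact 95% Poisson interval of each slice. Every gene is lowest at rest, though for Lama1, Lama2 and Lama4 the bars at rest and 2 dpi overlap. Without choroid plexus-rich spots, not drawn here, the intervals of Lamb1 and Lama5 overlap as well. The share of all genes that are lowest at rest was not computed. Lamb2 is higher in the 4 slices at 21 dpi (0.491 to 0.672) than in those at 7 dpi (0.343 and 0.429). Slice 2 at 7 dpi stands above slice 1 for Nid1 (0.530 and 0.149).

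From rest to 2 dpi, the genes with the largest ratio of levels were Nid2 (5.46-fold), Hspg2 (3.71-fold), Nid1 (2.61-fold) and Lamb1 (2.54-fold). For 7 of the 10 genes the interval at 2 dpi lay above that at rest, against 29.2% of 15197 genes with at least 20 UMIs in the 2 slices together. Lama1 (1.03-fold), Lama2 (1.15-fold) and Lama4 (1.60-fold) had overlapping intervals, and none of the 10 had a lower interval at 2 dpi, against 22.0% of those genes. The slice at 2 dpi also held more choroid plexus, the fluid-secreting tissue of the ventricles: its summed markers (Ttr, Kl, Clic6, Folr1) were 194 UMIs per 10000 at 2 dpi and 5.46 at rest.

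Without spots that had at least 100 choroid plexus marker UMIs per 10000, a minimum chosen after the data were seen, the intervals stayed apart for 5 genes (Lamb2, Lamc1, Nid1, Nid2, Hspg2), against 25.6% of 14923 genes. Nid2 was then 0.0203 (interval 0.0140 to 0.0285) at rest and 0.0707 (0.0559 to 0.0883) at 2 dpi. Lamb2 was 0.108 and 0.236, Nid1 0.0332 and 0.0780, and Hspg2 0.0185 and 0.0490. For Lamb1 the level at 2 dpi fell to 0.0980 (0.0804 to 0.118) beside 0.0671 (0.0551 to 0.0809) at rest, and for Lama5 to 0.0408 (0.0298 to 0.0546) beside 0.0314 (0.0234 to 0.0413), so that both sets of intervals overlapped. There is no replicate at either time, and the RNA of the slice at 2 dpi was sparse, so these ratios describe 2 slices only.

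Between 7 and 21 dpi none of the 10 genes passed over the whole slice. Whole-slice sums were compared with edgeR's quasi-likelihood test with Benjamini-Hochberg adjustment over 15727 genes, which called 0.0382% of genes (6 in all) at an adjusted p under 0.05, and 12.4% at an unadjusted p under 0.05. The nearest of the 10 was Lamb2, with a log2 difference of -0.63 (SE 0.16; edgeR adjusted p = 0.255), negative meaning lower at 7 dpi. Lamb1 was at 0.72 (SE 0.38; edgeR adjusted p = 0.524) and Lama4 at 0.69 (SE 0.37; edgeR adjusted p = 0.536). The median log2 difference was 0.14 over the 10 genes and 0.01 over all genes tested. Nid1 was at 0.41 (SE 0.57; edgeR adjusted p = 0.836) and passed without slice 1 at 7 dpi, at 1.07 (edgeR adjusted p = 0.0341). The samples that give these p-values are 2 mice per time point, and p-values measure the spread between those slices.

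The next question was where in the tissue the genes were read. An edge spot has a neighbouring position of the grid that is off the tissue. The edge can hold the pial surface and, in injured slices, the open face of the lesion. Any other border of the section counts the same, and no anatomy was annotated. The level of the 10 genes together was higher at the edge than in the interior in all 8 slices: 1.95 against 0.454 at rest, 2.03 against 1.06 at 2 dpi, 2.38 against 1.54 and 6.26 against 2.62 at 7 dpi, 4.76 against 2.02 and 4.62 against 1.99 at 21 dpi, and 5.96 against 2.14 and 5.27 against 1.72 in deleter slices. The fold was largest at rest (4.29) and smallest in slice 1 at 7 dpi (1.54), a slice whose outline is ragged, with 182 edge spots. Edge spots were shallower than interior spots in every slice but that at 2 dpi. Median UMIs were 6087.5 against 16540 at rest and 5897.5 against 15580 in slice 1 at 7 dpi, but 3738 against 2532 at 2 dpi. Levels are shares of all UMIs, so more RNA of these genes and less of the rest cannot be told apart.

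Nid1 was higher at the edge in every slice: 0.161 against 0.0274 at rest (11 UMIs at the edge), 0.271 against 0.0764 at 2 dpi, 0.380 against 0.119 and 1.56 against 0.444 at 7 dpi, 0.661 against 0.217 and 0.817 against 0.237 at 21 dpi, and 1.19 against 0.260 and 1.06 against 0.219 in deleter slices. These are folds of 3.05 to 5.88. Lamb2 was 0.660 against 0.0836 at rest, a fold of 7.89, and between 1.17-fold and 3.64-fold higher at the edge of the injured slices. The genes least regular in this respect were Lama2 and Lama5, which in slice 1 at 7 dpi were lower at the edge (folds 0.873 and 0.615), and Nid2, which at 2 dpi was 0.0451 at the edge and 0.121 in the interior.

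Over the 6 wild-type slices, with each slice as a block, 8 of the 10 genes were higher at the edge by edgeR, against 5.15% of the 14055 genes tested that were called higher there. Nid1 rose most, by a log2 difference of 1.86 (SE 0.13; edgeR adjusted p = 1.56e-04), a 3.62-fold level. Hspg2 was at 1.34 (SE 0.18; edgeR adjusted p = 0.00246) and Lama4 at 1.14 (SE 0.20; edgeR adjusted p = 0.00862). Lama1 was at 1.53, Lamb2 at 1.47, Nid2 at 1.22, Lamb1 at 0.84 and Lamc1 at 0.80, with edgeR adjusted p between 0.0101 and 0.0451. Lama2, at 0.93 (edgeR adjusted p = 0.0519), and Lama5, at 1.10 (edgeR adjusted p = 0.0628), did not pass. The median log2 difference was 1.18 over the 10 genes and 0.02 over all genes.

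The fibroblast list moved with this result: its sum was 3.62 UMIs per 10000 at the edge and 0.323 in the interior at rest, and 129 against 24.8 in slice 2 at 7 dpi. By edgeR 5 of 6 fibroblast markers were higher at the edge. So were 3 of 6 mural markers (Myh11 at 2.33, Vtn at 1.04, Rgs5 at 0.98), 2 of 6 endothelial markers (Pecam1 at 1.13, Flt1 at 0.55) and, of the microglia and macrophage list, Mrc1 (2.28). The mural list was 3.71 at the edge and 1.21 in the interior at rest, and 1.85 to 4.51 against 1.08 to 1.84 in the other wild-type slices. The part of these cells in the members' levels was not tested. When both sums were taken over spots with no Col1a1 UMI, none of the 9 genes tested passed, and 1 gene in all was called by edgeR. Nid1 was then at 1.45 and Hspg2 at 1.22, while Lamc1 was at 0.08 and Lamb1 at 0.12 (edgeR adjusted p = 1.000 for each). The calls also rested on slice 2 at 7 dpi, without which only Nid1 and Hspg2 passed, the 2 genes that also passed with every other slice left out. With the frame of the array counted as edge, only Nid1 passed (1.07, edgeR adjusted p = 0.00494), and with no block for slice none did.

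Inward from the edge, the summed level fell over several rows of spots in slices at 7 and 21 dpi. In slice 1 at 21 dpi it went from 4.76 in the outermost ring to 4.01 in the second, 3.35 in the third, 2.33 in rings 4 to 6 and 0.962 deeper. In the slice at rest it was 1.95, 0.864, 0.526, 0.388 and 0.432 over the same rings, a band 1 to 2 spots wide. The slice at 2 dpi did not fall inward beyond the second ring, with 0.813 in ring 2 and 1.17 from ring 7 on.

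Col1a1, the gene of the main chain of type I collagen, was used to stand for fibrotic tissue. No lesion was annotated, and such spots can also lie at the pial surface or in choroid plexus. Without choroid plexus-rich spots, slice 2 at 21 dpi kept 186 of its 203. Spots with at least 5 Col1a1 UMIs per 10000 are called Col1a1-rich, and spots with no Col1a1 UMI Col1a1-free. Col1a1-rich spots numbered 112 and 392 at 7 dpi, 170 and 203 at 21 dpi, and 193 and 274 in deleter slices. At rest there were 3, all at the edge, in which the 10 genes summed to 4.95 UMIs per 10000 (11 UMIs). At 2 dpi there were 26, with a median of 1309 UMIs, at which a single Col1a1 UMI meets the minimum. Both slices are left out of what follows, that at rest because it has so few such spots.

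**Figure D2:**
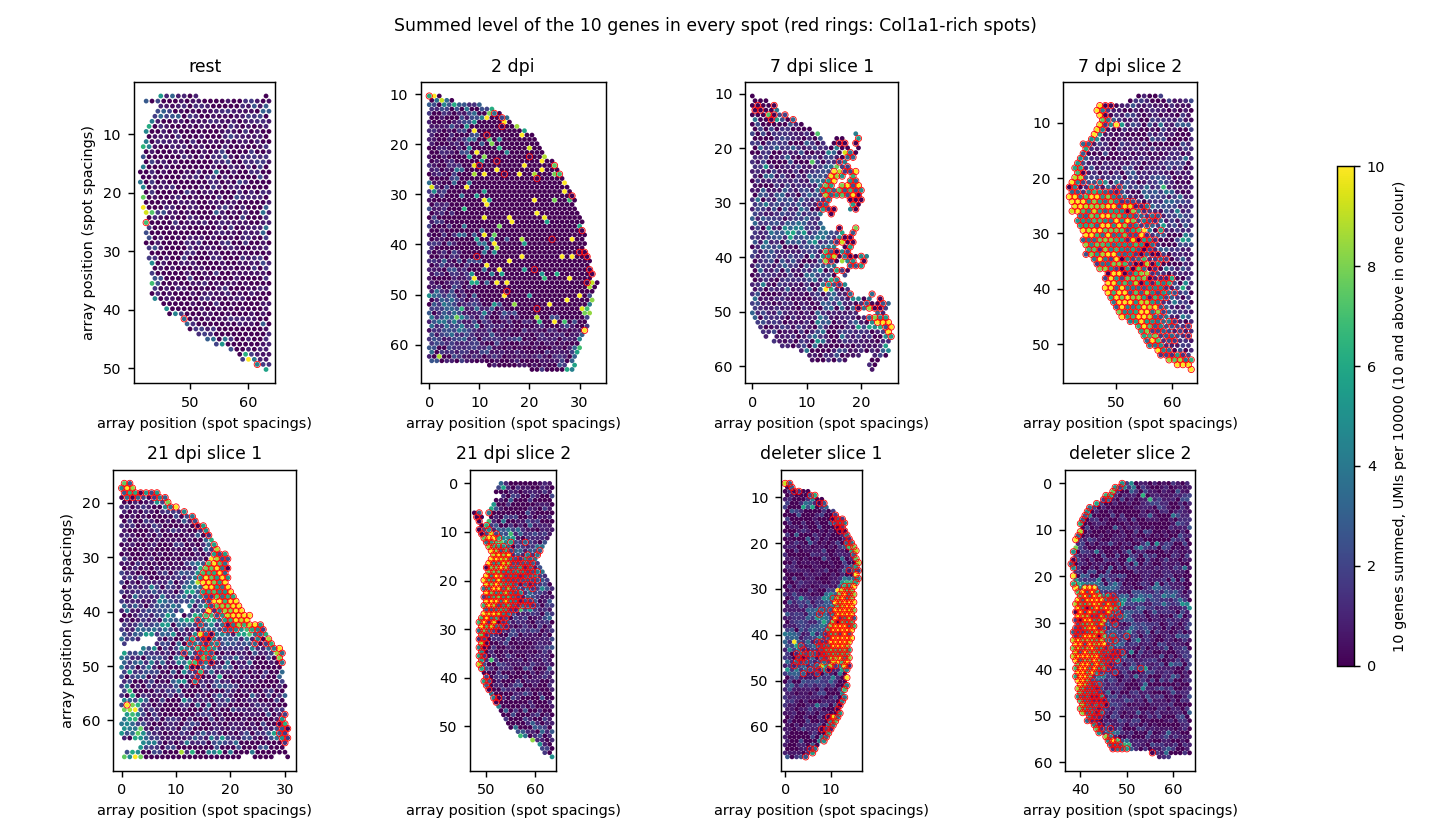
Map of the summed level of the 10 genes in every spot of the 8 slices (colour, UMIs per 10000, with 10 and above in 1 colour; axes, array position in spot spacings), with red rings around Col1a1-rich spots. High spots coincide with the Col1a1-rich ones at 7 and 21 dpi, along the edge and in the interior. No lesion was annotated. Scattered high spots at 2 dpi lie in shallow tissue, where 21.7% of spots have fewer than 1000 UMIs and a few UMIs of these genes reach the top colour.

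In Col1a1-rich spots the 10 genes summed to 5.42 and 6.39 UMIs per 10000 at 7 dpi, 6.97 and 5.46 at 21 dpi, and 6.90 and 6.31 in deleter slices, a range with no order by time. In Col1a1-free spots of the same slices they summed to 1.15, 1.08, 1.00, 0.727, 0.675 and 0.818. Col1a1-rich spots were higher in all 6 slices, by 4.70-fold to 10.2-fold. They were also shallower than Col1a1-free spots in every slice but slice 2 at 21 dpi, and most so at 7 dpi. Median UMIs there were 4923.5 against 16149 in slice 1 and 9206.5 against 17361.5 in slice 2. Levels are shares of all UMIs, so more RNA of these genes and less of the rest cannot be told apart.

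Nid1 had the widest gap. It was 0.921 and 1.36 in Col1a1-rich spots at 7 dpi, 1.31 and 0.894 at 21 dpi, and 1.25 and 1.23 in deleter slices, against 0.0788, 0.0845, 0.0422, 0.0303, 0.0265 and 0.0471 in Col1a1-free spots. Its fold was 11.7 and 16.1 at 7 dpi, 31.1 and 29.5 at 21 dpi, and 47.3 and 26.1 in deleter slices. The fit over the 4 wild-type slices, with each slice as a block, put Nid1 at a log2 difference of 4.36 (SE 0.26; edgeR adjusted p = 1.30e-04), 20.5-fold. From 75.0% to 83.5% of all Nid1 UMIs lay in Col1a1-rich spots in 4 of the 6 slices, where these spots held 15.3% to 32.5% of the UMIs of all genes. In slice 1 at 7 dpi and slice 1 at 21 dpi the share of Nid1 was 35.0% and 67.1%, beside 5.64% and 12.8% of the UMIs of all genes.

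Of the 10 genes, 9 were higher in Col1a1-rich spots by edgeR, against 28.8% of the 13306 genes tested that were called higher there. Behind Nid1 came Hspg2 with 3.41 (SE 0.21; edgeR adjusted p = 1.56e-04), Nid2 with 3.38 (SE 0.23; edgeR adjusted p = 1.70e-04) and Lama4 with 3.32 (SE 0.19; edgeR adjusted p = 1.21e-04), each 9.96-fold to 10.6-fold. Lamb1 was at 2.50, Lamc1 and Lama1 at 2.29, Lama2 at 2.11 and Lamb2 at 2.07, with edgeR adjusted p between 1.30e-04 and 0.00160. The median log2 difference was 2.40 over the 10 genes and 0.00 over all genes, and the 9 genes passed with each slice left out in turn.

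Hspg2, the large heparan sulphate proteoglycan that binds growth factors, was 0.295 and 0.651 in Col1a1-rich spots at 7 dpi and 0.662 and 0.638 at 21 dpi, against 0.0478, 0.0538, 0.0700 and 0.0424 in Col1a1-free spots. For Lama4 the slices at 7 dpi had 0.897 and 0.678 and those at 21 dpi 0.478 and 0.414, against 0.0746, 0.0973, 0.0409 and 0.0515. Nid2 was 0.649 and 0.391 at 7 dpi, with 0.438 and 0.333 at 21 dpi, against 0.0690, 0.0512, 0.0488 and 0.0151. For these genes the lowest Col1a1-rich slice was above the highest Col1a1-free slice. They were not alone in this: in the same wild-type slices it also held for Nid1 (0.894 against 0.0845), Lamc1 (0.676 against 0.218) and Lamb2 (0.531 against 0.296). The share of all genes with such a gap was not computed.

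Lama5 was the exception among the 10. Its level was 0.0354 and 0.0933 in Col1a1-rich spots at 7 dpi and 0.0939 and 0.130 at 21 dpi, against 0.0704, 0.0461, 0.0805 and 0.0515 in Col1a1-free spots. In slice 1 at 7 dpi, with 3 UMIs in Col1a1-rich spots, it was lower there (fold 0.503), and in the other injured slices, deleter slices included, 1.17-fold to 3.60-fold higher. The log2 difference was 0.64 (SE 0.35; edgeR adjusted p = 0.160). It became 0.97 (edgeR adjusted p = 0.0102) with the deleter slices added and 0.85 (edgeR adjusted p = 0.0467) without choroid plexus-rich spots, so the call for Lama5 depended on which spots and slices were compared.

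**Figure D3:**
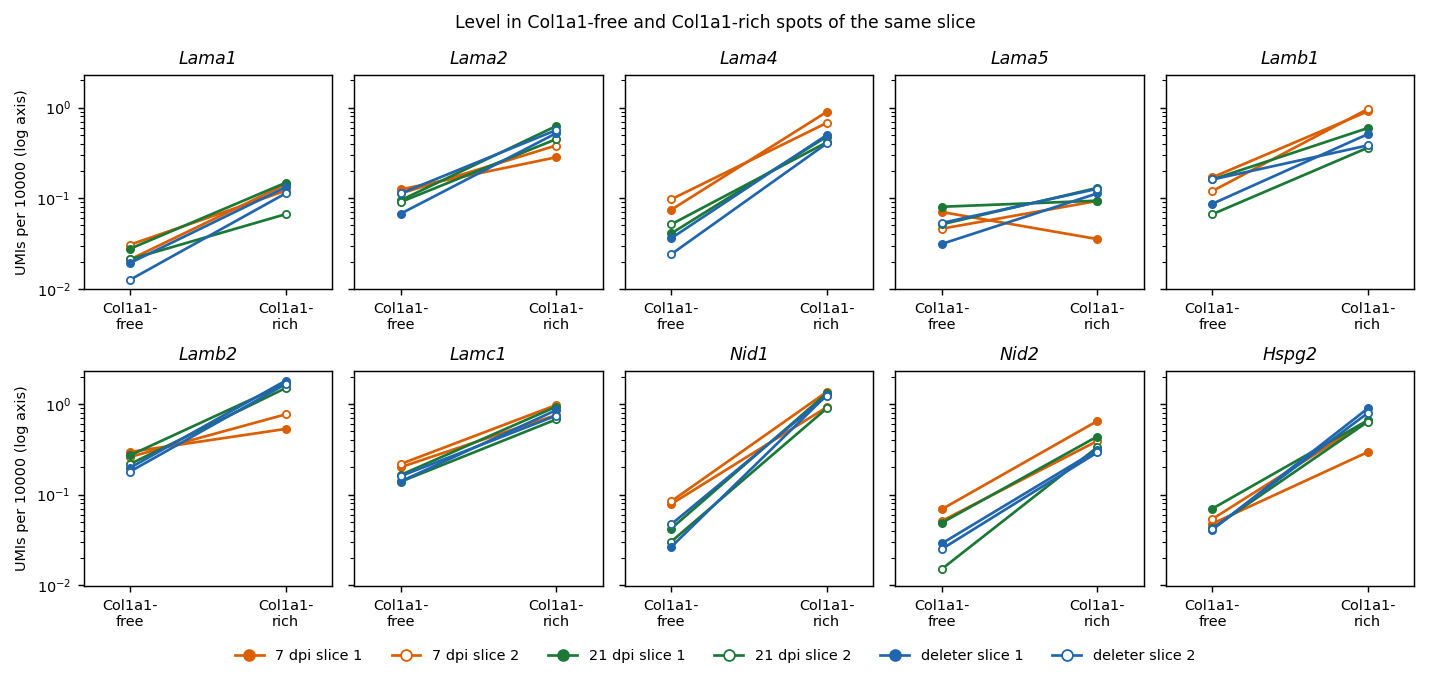
Level of each gene (y axis, UMIs per 10000, log axis) in Col1a1-free and Col1a1-rich spots of the same slice, joined by a line, for the 6 slices at 7 and 21 dpi. Every line rises except that of Lama5 in slice 1 at 7 dpi (0.0704 to 0.0354). The lines of Lamb2 end lower at 7 dpi (0.531 and 0.769) than at 21 dpi (1.68 and 1.50). Levels are shares of all UMIs, and Col1a1-rich spots at 7 dpi are shallower than Col1a1-free spots.

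The markers of other cells in these spots are given for comparison. From Col1a1-free to Col1a1-rich spots in the 4 wild-type slices, the fibroblast list went from 1.09–1.22 to 52.2–118 UMIs per 10000, the microglia and macrophage list from 3.94–18.6 to 43.4–49.7, the mural list from 1.33–1.56 to 2.69–3.64, and the endothelial list from 1.85–2.47 to 2.64–3.62. The neuron list went from 33.8–68.0 to 8.74–13.0. Among the endothelial and mural markers called by edgeR, Myh11 (1.70), Pecam1 (1.43), Kdr (1.40) and Rgs5 (1.36) had the largest log2 differences. Each marker of the fibroblast list, which includes Col1a1 itself, was called higher by edgeR, as were 4 of 6 endothelial and 4 of 6 mural markers, and the part of each cell type in the levels of the 10 genes was not tested.

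The summed level of the 10 genes rose with Col1a1 in steps. It was 1.25 to 2.06 in the 6 slices where Col1a1 was above 0 and below 5 UMIs per 10000, 3.62 to 6.15 where it was 5 to 20, and 6.57 to 9.65 where it was 20 and above, with no overlap between steps. Nid1 went from 0.0947–0.163 to 0.452–1.06 and 1.24–1.97 over these steps. Lama2, Lamb1, Lamb2 and Hspg2 also had higher levels at each step in all 6 slices. Lama1, Lama4, Lama5, Lamc1 and Nid2 did not in every slice: Lamc1 in slice 1 at 21 dpi was 0.976 and then 0.857 over the upper steps, and Nid2 in slice 1 at 7 dpi was 0.783 and then had no UMI, with an upper 95% limit of 0.255. The share of all genes that rose at each step was not computed.

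With distance from the nearest Col1a1-rich spot the level fell within a spot or so. The sum of the 10 genes was 1.86 to 2.99 at 1 spot, 1.36 to 1.88 at 2 spots, 0.896 to 1.51 at 3 to 5 spots, and 0.600 to 1.27 at 6 or more spots. Lamb2 next to Col1a1-rich spots was 0.462 and 0.335 at 7 dpi but 0.776 and 0.914 at 21 dpi, with 0.830 and 0.695 in deleter slices. At 6 or more spots it was 0.304 and 0.202, 0.333 and 0.191, and 0.157 and 0.210, where the time points overlapped. Nid1 at 1 spot was 0.236 and 0.288 at 7 dpi beside 0.259 and 0.147 at 21 dpi, so that its time points did not separate there.

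**Figure D4:**
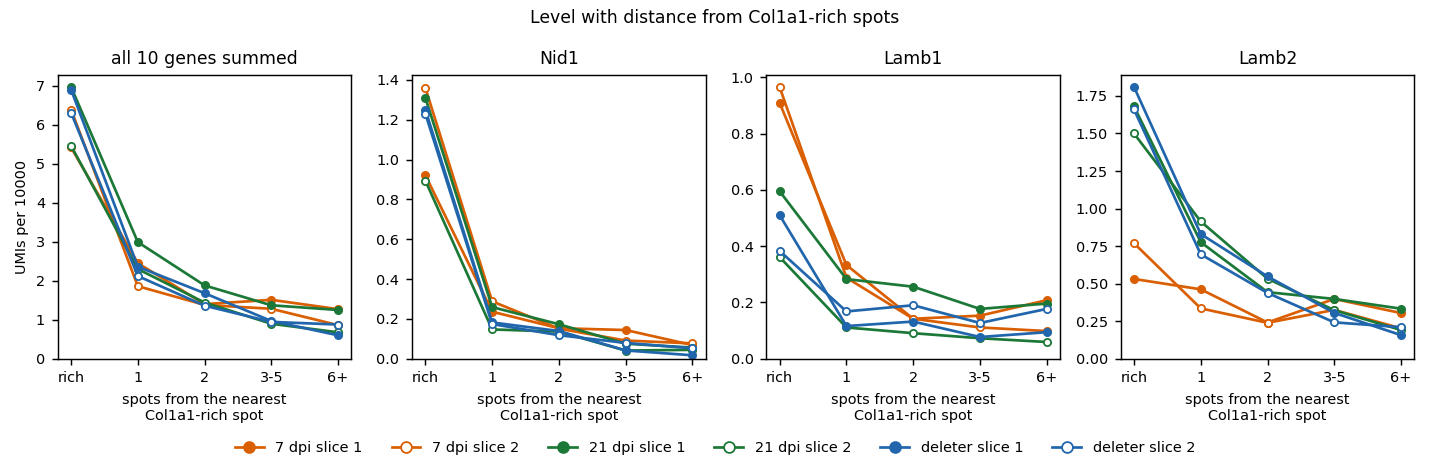
Level of the 10 genes summed and of Nid1, Lamb1 and Lamb2 (y axes, UMIs per 10000) in Col1a1-rich spots and at 1, 2, 3 to 5 and 6 or more spots from them (x axis), 1 line per slice. The sum falls from between 5.42 and 6.97 in Col1a1-rich spots to between 1.86 and 2.99 at 1 spot, and Lamb2 at 1 spot is higher in slices at 21 dpi (0.695 to 0.914) than at 7 dpi (0.335 and 0.462).

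Within Col1a1-rich spots the β chain genes changed in opposite directions between the time points. Lamb1 in Col1a1-rich spots was 0.909 and 0.965 at 7 dpi (77 and 424 UMIs), and 0.595 and 0.361 at 21 dpi (133 and 103 UMIs). Lamb2 was 0.531 and 0.769 at 7 dpi (45 and 338 UMIs), and 1.68 and 1.50 at 21 dpi (376 and 427 UMIs). The deleter slices, which entered only an alternative fit of this comparison, had 0.510 and 0.383 for Lamb1 and 1.81 and 1.66 for Lamb2. Both genes were thus near the wild-type slices at 21 dpi. Of the deleter slices, 1 carried Xist UMIs and the other Ddx3y UMIs, and the part of sex was not tested. In neither gene did the time points overlap.

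By edgeR on Col1a1-rich spots alone, Lamb1 was 1.98-fold higher at 7 dpi (log2 0.99, SE 0.23; edgeR adjusted p = 0.0442) and Lamb2 2.35-fold lower (log2 -1.23, SE 0.19; edgeR adjusted p = 0.00741). These were the 2 of the 10 genes called, against 3.90% of 12912 genes, of which 1.60% were higher at 7 dpi and 2.30% higher at 21 dpi. Lama4 was at 0.77 (SE 0.21; edgeR adjusted p = 0.0726) and Lama2 at -0.62 (SE 0.23; edgeR adjusted p = 0.199), and the remaining 6 lay between -0.53 and 0.32. The median was 0.11 over the 10 genes and 0.00 over all.

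The call for Lamb1 was near its threshold, and was made neither by DESeq2 nor at a Col1a1 minimum of 2 UMIs per 10000. It ended without slice 1 at 7 dpi (log2 1.01, edgeR adjusted p = 0.126), without slice 2 at 7 dpi (0.96, edgeR adjusted p = 0.222) and without slice 2 at 21 dpi (0.66, edgeR adjusted p = 0.159), while the direction held in each. Without slice 1 at 21 dpi it was 1.38 (edgeR adjusted p = 2.61e-05). Lamb2 passed with each slice left out, between -1.07 and -1.56, and missed the threshold only where Col1a1-rich spots were taken from a minimum of 2 UMIs per 10000 (-1.14, edgeR adjusted p = 0.0592).

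The location of the spots, at the edge or in the interior, bore on the pair. Of the Col1a1-rich spots in slice 1 at 7 dpi, 67.9% were at the edge, against 17.6% in slice 2 and 33.5% and 23.2% at 21 dpi. In interior Col1a1-rich spots Lamb1 was 1.37 and 1.04 at 7 dpi beside 0.557 and 0.337 at 21 dpi, and Lamb2 0.393 and 0.615 at 7 dpi beside 1.49 and 1.43 at 21 dpi. The differences were as large there as over all Col1a1-rich spots, at 1.37 for Lamb1 (edgeR adjusted p = 0.0230) and -1.42 for Lamb2 (edgeR adjusted p = 0.00685). In edge Col1a1-rich spots Lamb1 was 0.571 and 0.649 at 7 dpi beside 0.726 and 0.513 at 21 dpi, which overlapped, and Lamb2 was 0.632 and 1.44 at 7 dpi beside 2.34 and 1.92 at 21 dpi.

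As a ratio of UMIs, which follows the pair within each slice and does not rank the genes, Lamb1 over Lamb2 was 1.71 and 1.25 in Col1a1-rich spots at 7 dpi, 0.354 and 0.241 at 21 dpi, and 0.282 and 0.231 in deleter slices. In Col1a1-free spots it was 0.576 and 0.461 at 7 dpi, 0.592 and 0.306 at 21 dpi, 0.439 and 0.895 in deleter slices, 0.711 at rest and 0.670 at 2 dpi. The separation by time seen in Col1a1-rich spots was thus not seen in Col1a1-free spots, where the time points overlapped.

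**Figure D5:**
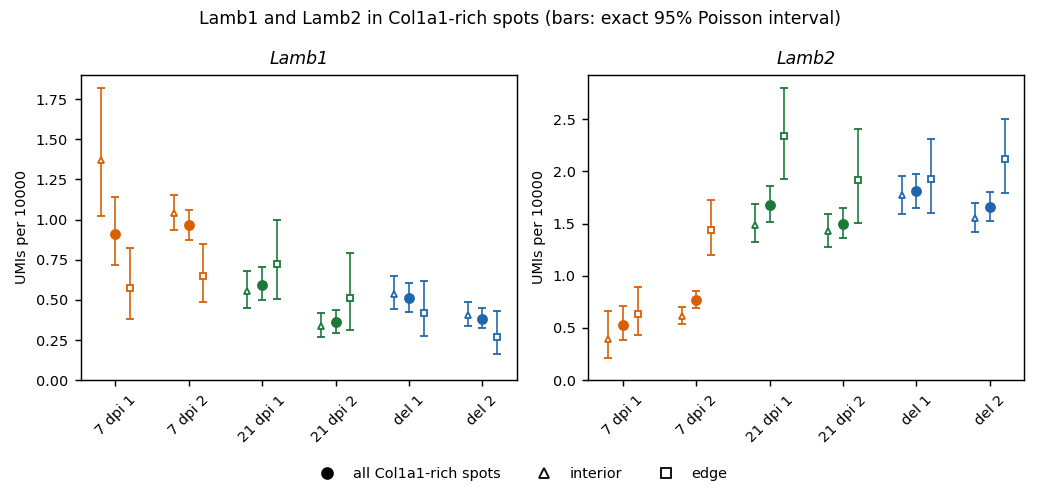
Level of Lamb1 (left) and Lamb2 (right) in Col1a1-rich spots of the 6 slices at 7 and 21 dpi (y axes, UMIs per 10000; filled circles, all such spots; triangles, interior; squares, edge; bars, exact 95% Poisson interval). Over all such spots Lamb1 is higher at 7 dpi (0.909 and 0.965) than in the other 4 slices (0.361 to 0.595), and Lamb2 is lower (0.531 and 0.769 against 1.50 to 1.81).

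Whether the step from Col1a1-free to Col1a1-rich spots itself differed between the time points was tested as an interaction. For Lamb2 it did, with a log2 difference of steps of -1.44 (SE 0.25; edgeR adjusted p = 0.0176), larger at 21 dpi. Of the 10 genes only Lamb2 was called, against 4.01% of 14147 genes. Its folds were 1.80 and 2.94 at 7 dpi, 6.18 and 6.86 at 21 dpi, and 9.14 and 9.22 in deleter slices. The call ended without slice 1 at 7 dpi (-1.14, edgeR adjusted p = 0.0968) or slice 2 at 7 dpi (-1.79, edgeR adjusted p = 0.0562). Nid1 was at -1.16 (SE 0.29; edgeR adjusted p = 0.0625) and passed with the deleter slices added (-1.11, edgeR adjusted p = 0.0244). Lamb1 was at 0.62 (SE 0.30; edgeR adjusted p = 0.309), so that a difference in its step was not shown. Cell type markers moved in the same test: Gfap (-2.79), Aqp4 (-2.45) and Slc1a3 (-1.13) of the astrocyte list, Cd68 (-2.20), C1qa (-1.83) and C1qb (-1.82) of the microglia and macrophage list, and Dcn (-0.97) of the fibroblast list had a larger step at 21 dpi by edgeR, and the neuron markers Slc17a7 (1.12), Snap25 (0.96), Syt1 (0.95) and Nefl (0.94) moved the other way. Their part in the Lamb2 difference was not tested. Depth differed between the classes as well. At 7 dpi, median UMIs per spot were 4923.5 in Col1a1-rich and 16149 in Col1a1-free spots of slice 1, and 9206.5 and 17361.5 in slice 2. At 21 dpi they were 10828 and 11686.5 in slice 1, and 13879 and 11061 in slice 2. Levels are shares of all UMIs, and the part of depth in the Lamb2 difference was not tested.

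Other markers changed in Col1a1-rich spots over the same interval. Of the fibroblast list, Dcn (-1.54) and Lum (-1.22) were lower at 7 dpi by edgeR, and of the astrocyte list Aqp4 (-1.10), Gfap (-1.08) and Slc1a3 (-0.87). Mrc1, of border macrophages, was also lower at 7 dpi (-1.21), and the neuron marker Slc17a7 was higher (0.92). Cthrc1, the myofibroblast gene whose promoter drives the deleter, was 1.16 and 1.09 UMIs per 10000 in Col1a1-rich spots at 7 dpi, 0.219 and 0.175 at 21 dpi, and 0.101 and 0.132 in deleter slices. The endothelial list was 3.33 and 3.26 at 7 dpi beside 3.62 and 2.64 at 21 dpi, and the mural list 3.39 and 2.94 against 3.64 and 2.69, both overlapping. The part of these cells in the Lamb1 and Lamb2 levels was not tested.

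Vessels in Col1a1-free tissue were approached through endothelial markers (Cldn5, Flt1, Pecam1, Kdr, Ly6c1, Slco1a4). Among interior Col1a1-free spots of each slice, the 25% with the highest summed endothelial level (endothelial-rich) were compared with the 25% with the lowest. At 2 dpi the 389 endothelial-poor spots held 1075472 UMIs, against 3136439 in the 389 endothelial-rich spots. The split at 2 dpi thus also sorted spots by depth, which it did far less in the other slices. The 10 genes summed to 0.618 against 0.405 at rest, 1.18 against 0.837 at 2 dpi, 1.44 against 0.837 and 1.50 against 0.938 at 7 dpi, 1.14 against 0.733 and 0.958 against 0.514 at 21 dpi, and 0.956 against 0.597 and 1.02 against 0.767 in deleter slices. The endothelial-rich spots were higher in all 8 slices, by 1.33-fold to 1.87-fold.

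Lamb2 was 0.130 against 0.0481 at rest, 0.258 against 0.205 at 2 dpi, 0.370 against 0.162 and 0.339 against 0.232 at 7 dpi, and 0.313 against 0.180 and 0.192 against 0.149 at 21 dpi. It was the only 1 of the 4 genes with enough UMIs to be tested that passed, 1.80-fold higher (log2 0.85, SE 0.18; edgeR adjusted p = 0.00684), against 4.35% of 11017 genes called higher in endothelial-rich spots. Lamc1 was at 0.48 (SE 0.17; edgeR adjusted p = 0.102), Lama2 at 0.21 (SE 0.21; edgeR adjusted p = 0.641) and Lamb1 at 0.14 (SE 0.23; edgeR adjusted p = 0.804). Lama1, Lama4, Lama5, Nid1, Nid2 and Hspg2 had too few UMIs in these spots to be tested in this fit. This fit thus gives no result for the endothelial chains Lama4 and Lama5. With low counts kept, or with wider classes of spots, more members were called than Lamb2 alone. The counts are given below with the other alternatives.

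Markers of choroid plexus also moved with this split, at 9.30 against 3.32 UMIs per 10000 at rest and 141 against 45.3 at 2 dpi, as did fibroblast markers, at 0.505 against 0.157 and 0.947 against 0.623. By edgeR, 2 of 4 fibroblast markers tested were higher in endothelial-rich spots, Dcn (1.65) and Col1a2 (0.70). So were 3 of 4 mural markers tested (Higd1b at 1.37, Rgs5 at 1.27, Vtn at 1.10) and all 6 astrocyte markers (0.32 to 0.58). The oligodendrocyte markers Mag (0.55) and Cnp (0.44), 4 of 4 choroid plexus markers and P2ry12 (0.55) were also higher there. The neuron markers Snap25, Slc17a7 and Syt1 were lower. The mural list was 1.46 to 2.69 in endothelial-rich and 0.797 to 1.07 in endothelial-poor spots of the wild-type slices. Lamb2 without slice as a block was at 0.79 (edgeR adjusted p = 0.761). The part of these other cells in the Lamb2 difference was not tested.

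A list of 25 other basement membrane genes (further laminin chains, type IV, XV and XVIII collagens, Agrn, Sparc, Smoc1, Smoc2, netrins, Frem and Fras1 genes and others) and 9 laminin receptor genes gives the surrounding pathway. In Col1a1-rich against Col1a1-free spots, 14 of the 19 partners tested were higher by edgeR, against 28.8% of all genes tested. Col18a1 (log2 4.01), Col15a1 (3.44) and Smoc2 (3.41) led. The partners' median was 2.63, near the 2.40 of the 10 genes. Of 8 receptor genes tested 4 were higher, against the same 28.8% of all genes. The integrin genes Itga1 (2.34), Itgb1 (2.12) and Itga6 (1.39) led, and the median of the receptors was 0.81.

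At the edge 8 of 23 partners were higher by edgeR, led by Smoc1 (1.90), Hmcn1 (1.66) and Tinagl1 (1.34), and 2 of 8 receptors, Itga1 (0.93) and Itgb1 (0.72). Of all genes tested, 5.15% were called higher at the edge. In Col1a1-rich spots between the time points, Col4a1, a chain of the main collagen IV trimer, was higher at 7 dpi (0.81, edgeR adjusted p = 0.0200), as Lamb1 was. Smoc1, a calcium-binding basement membrane protein, was lower at 7 dpi (-2.26, edgeR adjusted p = 0.00323), as Lamb2 was. None of the other 16 partners and none of 8 receptors was called there, against 3.90% of all genes tested. In the interaction test of the Col1a1 step, 2 of 21 partners were called, among them Smoc1 (-2.67, edgeR adjusted p = 0.0121). Of 9 receptors 1 was called, Dag1 (-1.10, edgeR adjusted p = 0.0180). Smoc1 and Dag1 had a larger step at 21 dpi, as Lamb2 had, and 4.01% of all genes tested were called in that test. In endothelial-rich spots 4 of 10 partners were higher, among them Col18a1 (1.03), Col4a1 (0.75) and Col4a2 (0.62), while Smoc2 was lower (-0.87). Of 8 receptors 4 were higher, among them Itga1 (1.20), the laminin α5 receptor Bcam (1.09) and Itgb1 (0.62). Of all genes tested, 4.35% were called higher there.

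Wild-type and deleter slices at 21 dpi were compared last, for a genotype whose deletion was not detectable. None of the 10 genes passed, and edgeR called 0 of 15708 genes (0%), with 3.37% at an unadjusted p under 0.05 and 12 genes by DESeq2. The log2 differences, wild type over deleter, ran from -0.19 for Hspg2 to 0.39 for Nid2 (edgeR adjusted p = 0.999 for each of the 10). With 2 slices on either side, each genotype on its own capture area, this leaves differences of about this size undetectable.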

How the data were processed

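Visium libraries of 8 mouse brain slices on 4 capture areas were analysed. The authors aligned reads to mm10 with Space Ranger 2.0.0 (the submitters' processing notes) and deposited unnormalized UMI counts for each gene in each spot. Deposited spot positions were used. Tissue spots (9340) were kept as deposited, and joined neighbours gave 2 pieces per area, each taken as 1 slice of 1 mouse. In the area shared by rest and 2 dpi, the labels do not name the pieces. The piece of 1017 spots was taken as rest and that of 1726 spots as 2 dpi, by eye from the outlines in the study's own maps. Across the areas 1293 spot barcodes were shared, as they belong to the array. No doublet caller or deconvolution was run, since a spot holds several cells.

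Raw counts were summed per slice and spot class and tested with edgeR 4.0.16 (TMM scaling, filterByExpr, quasi-likelihood test, threshold 0.05 after Benjamini-Hochberg adjustment over all genes tested) and limma 3.58.1 in R 4.3.3. Standard errors are the log2 fold change over the square root of F. Each time point has 2 mice at most. In fits without a slice block, p-values measure the spread between slices. In fits with that block, they measure how far the difference within a slice varies between slices. DESeq2 1.42.0 was an alternative, as were no filter on low counts, spots with at least 1000 UMIs, each slice left out, deleter slices added, other Col1a1 minimums (2 and 10), an edge of 2 rings, the array frame as edge, interior or Col1a1-free spots only, and fits with no slice block. Leaving out choroid plexus-rich spots was chosen after seeing the data. So was adding the slice at 2 dpi, together with the deleter slices, to the fit of Col1a1-rich against Col1a1-free spots. Sums, intervals and plots used Python 3.11.15, numpy 2.4.6, pandas 2.3.3, scipy 1.17.1 and matplotlib 3.10.9. Intervals are exact Poisson at the 95% level and cover counting error only.

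The members, gene lists and tests were chosen with earlier results of these data known. Named were all 10 members, up to 3 called partner or receptor genes per direction and comparison, marker genes, Col1a1, Cthrc1, and the 3 genes most like each member. Xist and Ddx3y were added after their values were seen. The results of 1 partner gene and 1 marker gene are not reported here. Gene positions are from GENCODE M21, matched for 10 of 10 genes. On simulated counts the same edgeR step recovered 58% of changes of 1 log2 unit and 97% of changes of 2 between Col1a1-rich and Col1a1-free spots (13328 genes). Between time points within Col1a1-rich spots it recovered 15% and 78% (12861 genes), and 8.82% of its calls there were false. For the difference of the Col1a1 contrast between time points it recovered 1% and 42% (13907 genes). The simulation used the same dispersion for all genes and no difference between slices beyond depth.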

Additional observations from a re-analysis of the deposited data

Results flagged for a closer look

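The step of Lamb2 from Col1a1-free to Col1a1-rich spots differed between the time points, with a log2 difference of -1.44 (7 dpi over 21 dpi) in edgeR's interaction test. It is listed because 2 groups of slices differed in the size of the same contrast by a test of that difference. All 4 wild-type slices moved the same way, and the fold was larger in each 21 dpi slice than in either 7 dpi slice. The depth of the spot classes also differed between the time points, and its part was not tested.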

How the results depend on the processing

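No paired analysis was possible because the labels give no replicate numbers shared between groups; slice was a block where both sums came from 1 slice. Of the single-gene results under the alternatives, 635 kept direction and side of the threshold, 51 lost their call, 23 gained one and 42 changed sign.

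Counts of genes called moved with the setting, and the cause was not tested. For 7 against 21 dpi over the whole slice DESeq2 called 398 genes, 267 were called with low counts kept, 400 with deleter slices added and 21 without choroid plexus-rich spots (slices left out: 7 to 335 genes, 0 to 1 members). For the edge these were 1446, 1486, 3252 and 1768; no slice block gave 62 genes and 0 members, the array frame as edge 113 and 1, Col1a1-free spots 1 and 0, and slices left out 254 to 1737 and 2 to 9. For Col1a1-rich against Col1a1-free spots slices left out gave 5752 to 7128 genes and 9 members each time. For the difference of that contrast DESeq2 called 348 genes, no filter 1433 with 2 members and a Col1a1 minimum of 2 364; deleter slices added, a minimum of 10, interior spots and no choroid plexus-rich spots gave 2 members each (slices left out: 60 to 776 genes, 0 to 1 members). In Col1a1-rich spots between times DESeq2 called 304 genes with 1 member, no filter 1123, deleter slices added 1019, and a minimum of 2 187 with 0 members (slices left out: 236 to 863 genes, 1 to 3 members). For the endothelial split DESeq2 called 248, no filter 1158 with 4 members, deleter slices added 1290 with 2, no slice block 15 with 0, and wider classes of spots gave 5 members (slices left out: 335 to 779 genes, 1 member). For deleter mice DESeq2 called 12, no filter 40 and slices left out 0 to 3.

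The following differences changed sign. For the contrast difference Lama1 was -0.20 with deleter slices and -0.12 at a minimum of 2, and Lama4 0.15 at a minimum of 10. In Col1a1-rich spots Nid1 was -0.00 at a minimum of 10. In the endothelial split Lamb1 was -0.08 with deleter slices and -0.04 without choroid plexus-rich spots. Against deleter mice Lamb2 was -0.00 with no filter, and without choroid plexus-rich spots Lamb2 was -0.08, Lama2 -0.05 and Lamb1 -0.05. With slices left out, log2 differences of 7 against 21 dpi over the whole slice ran from -0.20 to 0.70 for Lamc1, -0.51 to 0.02 for Lama5, -1.22 to 0.50 for Hspg2, -0.81 to 1.07 for Nid1, -0.03 to 0.40 for Nid2 and -0.40 to 0.80 for Lama1. Contrast differences ran from -1.66 to 0.28 for Lama5, -0.81 to 0.11 for Hspg2, -0.52 to 0.33 for Lama4 and -0.16 to 0.68 for Lama1. In Col1a1-rich spots they ran from -0.08 to 0.39 for Lamc1, -0.24 to 0.40 for Nid1 and -0.24 to 0.91 for Lama1, and in the endothelial split from -0.05 to 0.30 for Lamb1. Against deleter mice they ran from -0.22 to 0.14 for Lamc1, -0.07 to 0.48 for Lama5, -0.48 to 0.13 for Hspg2, -0.21 to 0.24 for Lamb2, -0.04 to 0.08 for Lama2, -0.23 to 0.36 for Lama4, -0.48 to 0.35 for Lamb1 and -0.46 to 0.75 for Lama1.

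Depth limits the sparse genes most: Lama5 had 3 to 41 UMIs in the Col1a1-rich spots of a wild-type slice and Lama1 12 to 53.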

Other observations

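Choroid plexus-rich spots outside the Col1a1-rich class, described after the data were seen, held several of these genes at high levels. In the 4 slices with over 60 such spots (2 dpi, slice 1 at 7 dpi, slice 1 at 21 dpi, deleter slice 2) the 10 genes summed to 2.32, 2.48, 3.59 and 2.19 UMIs per 10000, against 0.779, 1.04, 0.856 and 0.736 in Col1a1-free spots without choroid plexus. Lama5, which is an epithelial as well as an endothelial chain, was 0.247, 0.243, 0.380 and 0.197 there, against 0.0359, 0.0546, 0.0557 and 0.0386. Nid2 was 0.363, 0.286, 0.402 and 0.226, against 0.0660, 0.0499, 0.0272 and 0.0170. Lamb1 was 0.581, 0.394, 0.578 and 0.511, against 0.0825, 0.158, 0.146 and 0.142. All 4 slices were higher in choroid plexus-rich spots for each of the 3 genes, with no overlap. The same held for Nid1 (0.0930 to 0.187 against 0.0329 to 0.0734), Lamb2 (0.358 to 0.847 against 0.173 to 0.267) and Lamc1 (0.218 to 0.329 against 0.147 to 0.183). The share of all genes with such a gap was not computed. The choroid plexus-rich spots could hold some Col1a1, below 5 UMIs per 10000. The fibroblast list in them was 1.42, 2.60, 7.48 and 2.40 and the endothelial list 2.00, 2.82, 3.11 and 1.75 UMIs per 10000, and their part in these levels was not tested. No test was run, since the spots were picked after their values were seen.

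Over 16 sums (the edge and the interior of 8 slices, which share slices and depth), the genes whose level was most like each member's among 14150 others were found by Pearson's r of log2(UMIs per 10000 + 0.1). Nid1 was most like P3h1, Emilin1 and Ppic (r = 0.99 each), and Hspg2 like Loxl1 (0.99), P3h3 and Mmp2 (0.98 each). Lamb2 was most like Slc7a2, Aebp1 and Cavin1 (0.98 each), and Lama2 like Vstm4, Htra3 and Pdgfrb (0.97 each). Lama1 was most like Tmem204 (0.97), Scarf1 (0.96) and Dact1 (0.95), Lama4 like Nrp2 (0.97), Isg20 (0.96) and Fn1 (0.95), and Lamc1 like Prcp (0.96), Fkbp10 and Ppic (0.95 each). Lower values were the highest for Nid2 (Nfatc3, 0.95; Zbed3 and Mtfr1l, 0.94), Lama5 (Arhgef5, 0.95; Gpx8 and Nxn, 0.94) and Lamb1 (Atp6v0e, 0.93; Hist1h4i and Gabarap, 0.92). Among the members, Nid1 and Hspg2 were the most alike (0.96), followed by Lama2 and Lamb2 (0.95) and Lamc1 and Nid1 (0.94). The least alike were Lama4 and Lama5 (0.53), and the β chain genes Lamb1 and Lamb2 stood at 0.61. These are descriptions over sums that are not independent.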
